A study of Mus musculus with 2 samples.

Results

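The cornified envelope genes of the mouse epidermis were examined in wounded neonatal skin of WT mice and of mice without PU.1 (PU.1-/-, labelled PU.1_KO), with 1 mRNA library per genotype. The genes were chosen by name, as those whose symbol starts with Lce or Sprr followed by a digit, plus Lor, Ivl, Flg2, Hrnr, Rptn and Tchh. This gave 43 of the 24346 genes listed, and 1 further gene that the rule names was not analysed here. Both libraries came from C57BL/6J pups wounded in the dorsal skin at 1 day of age, and the wounds were harvested 24 h later. The WT mice carry an intact PU.1 gene, and the PU.1-/- mice lack PU.1, the product of Spi1 and a transcription factor that myeloid and lymphoid cells need to develop. The study's methods describe incisions made in littermates, whereas the design text speaks of excisional wounds. Neither the number of pups behind each library nor their sex is stated. No uninjured skin was part of the comparison, so the values do not show which genes the wound itself induced.

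The cornified envelope is the protein shell that replaces the plasma membrane of a keratinocyte when it dies and becomes part of the skin barrier. Involucrin is laid down early beneath the membrane, small proline-rich (Sprr) proteins act as cross-bridges, and loricrin and the late cornified envelope (Lce) proteins are added in the granular layer, where transglutaminases link them together. The genes lie side by side in the epidermal differentiation complex, and several Sprr genes and Lce3 genes are known from other work to respond to injury or inflammation of the epidermis.

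The values are FPKM, the fragments of a gene per kilobase of transcript and per 1e+06 mapped fragments, which scales them for length and depth. Each value is a share of its library, so ratios between libraries also depend on the other RNA present. Ratios are PU.1-/- over WT, with values below 0.1 FPKM raised to 0.1. With 1 library per genotype there is no spread between animals and no test of the genotype, and no p-value is given. The 95% intervals are exact binomial (Clopper-Pearson) intervals on read numbers estimated from the FPKM values, and they cover counting error only. The depth estimated from the steps of low values was 1.38e+07 fragments for WT and 1.58e+07 for PU.1-/-. Spi1 had a level of 35.4 FPKM in WT and was down to 1.45 in PU.1-/-. The 6 macrophage markers all had log2 ratios of -3.41 or less, with Tyrobp, C1qa, C1qb and C1qc listed at 0 in the PU.1-/- library. Xist, a transcript of the inactive X chromosome, was listed at 0 (WT) and 9.48 FPKM (PU.1-/-), and the Y-linked Ddx3y at 21.0 FPKM in WT and 0 in PU.1-/-, so that genotype and sex cannot be told apart. Epidermis was well represented in both libraries, with Krt14, a keratin of basal keratinocytes, at 4659 and 5195 FPKM and Krt10, a keratin of suprabasal keratinocytes, at 2291 and 2602 FPKM in WT and PU.1-/-. Of the 4 oral and oesophageal keratins, Krt4, Krt13 and Krt76 did not exceed 0.262 FPKM in either library, and Krt84 was at 1.47 FPKM in WT and 1.17 in PU.1-/-.

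The envelope genes did not differ between the genotypes as 1 block. Loricrin, the Lce1 genes, Lce6a, the S100 fused-type genes Flg2, Hrnr and Rptn and 5 of the 6 Lce3 genes had higher values in the PU.1-/- wound, while Sprr1a, Sprr1b and the Sprr2 genes from Sprr2d to Sprr2k had lower values, down to 26.9% of WT for Sprr2k. The summed level of all 43 genes was 8721 (WT) and 9058 FPKM (PU.1-/-), a ratio of 1.04, since the opposite differences nearly cancelled. In bulk tissue, fewer cells of a type and less RNA per cell cannot be told apart, which holds for every ratio given here. At a ratio of 2, 5 of the 43 genes (11.6%) were lower in PU.1-/-, against 4.34% of all genes listed, and 2 of the 43 (4.65%) were higher, against 2.32% of all genes listed. The 5 lower genes were Sprr2e, Sprr2f, Sprr2i, Sprr2j-ps and Sprr2k, and the 2 higher genes were Lce3e and Sprr2a2. A smaller ratio of 1.2, chosen after the values were seen, was applied to genes of at least 10 FPKM in 1 or both libraries. By this rule 24 of 38 envelope genes (63.2%) were higher, against 13.4% of all genes of that level, and 10 of 38 (26.3%) were lower, against 15.7%. The 24 were 19 of the 21 late genes and Lce3a to Lce3e, and the 10 were Sprr1a, Sprr1b, the 7 genes from Sprr2d to Sprr2j-ps and Tchh. The median log2 ratio was 0.41 over the 43 genes and 0.00 over all genes listed.

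**Figure D1:**
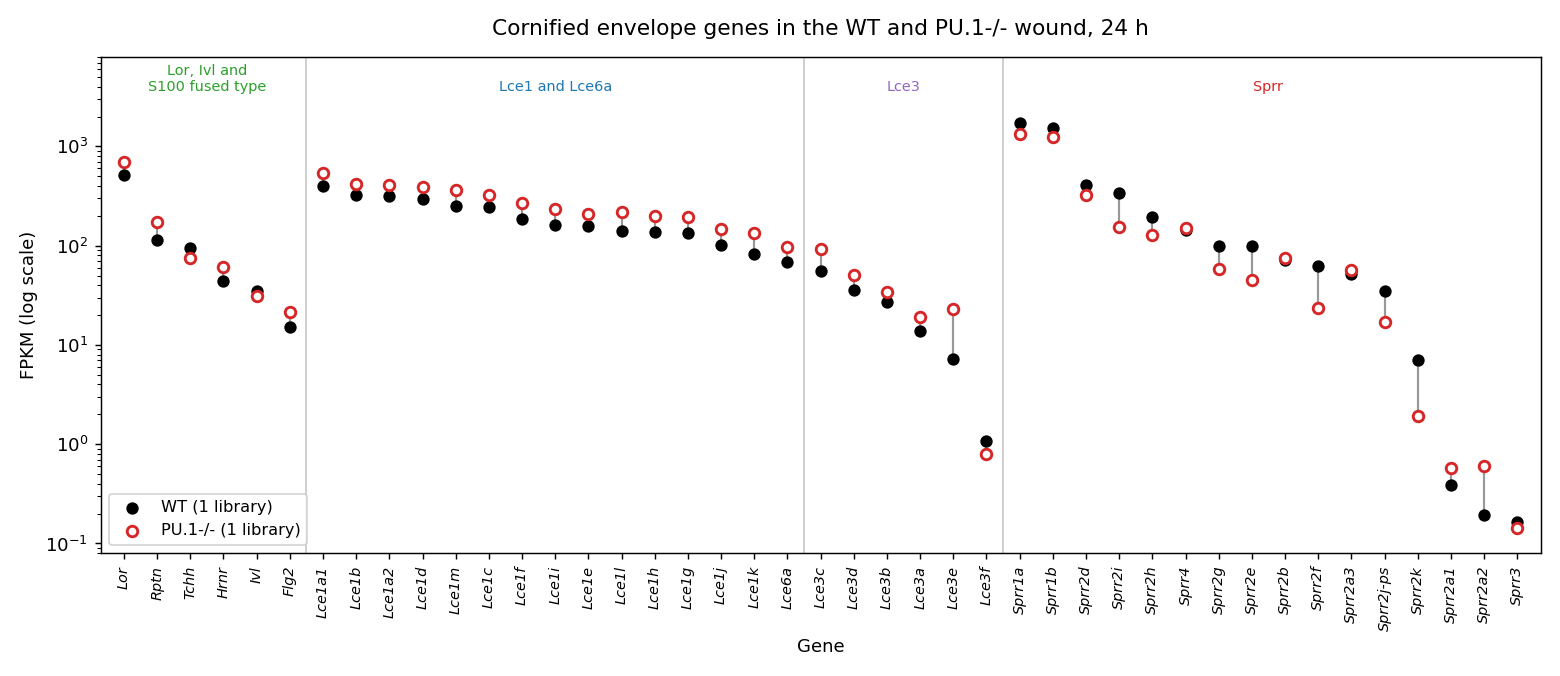
FPKM (log scale) of each of the 43 envelope genes in the WT library (filled points) and the PU.1-/- library (open points), ordered within each class by the WT level. The open point lies above the filled one for all 14 Lce1 genes and below it for Sprr1a, Sprr1b and the Sprr2 genes from Sprr2d to Sprr2k.

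Loricrin (Lor), the main protein of the mature envelope, had the highest level among the late genes, with 513 (WT) and 703 FPKM (PU.1-/-). Its ratio was 1.37, and counting error alone gave an interval of 1.34 to 1.40 (about 11162 and 17591 reads). Lor lies at the start of the locus, on chromosome 3 of GRCm38 (the assembly of mm10) from 92080271 to 92083142. Lce6a, a single gene next to the Lce1 cluster, was at 69.0 (WT) and 96.2 FPKM (PU.1-/-), a ratio of 1.39 (interval 1.25 to 1.55). All 14 Lce1 genes were higher in the PU.1-/- wound. Their levels ran from 82.7 FPKM (Lce1k) to 404 FPKM (Lce1a1) in WT and from 134 FPKM (Lce1k) to 541 FPKM (Lce1a1) in PU.1-/-, so that the same genes marked both ends. Added together, the Lce1 genes gave 2934 (WT) and 4067 FPKM (PU.1-/-), a ratio of 1.39 (interval 1.36 to 1.41).

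By their point values, the ratios of the Lce1 genes formed a lower and a higher set that followed the order of the genes along the chromosome. The 6 genes from Lce1a1 to Lce1e, which are neighbours, had ratios between 1.29 and 1.34. They were Lce1a1 (404 to 541 FPKM), Lce1b (324 to 420 FPKM), Lce1a2 (314 to 413 FPKM), Lce1c (243 to 323 FPKM), Lce1d (296 to 394 FPKM) and Lce1e (159 to 208 FPKM), each given from WT to PU.1-/-. The 8 genes from Lce1f to Lce1m had ratios between 1.45 and 1.62. Among these, Lce1k was at 82.7 (WT) and 134 FPKM (PU.1-/-), a ratio of 1.62 (interval 1.46 to 1.80). Lce1l followed at 140 FPKM and 220.0 FPKM, a ratio of 1.58 (interval 1.45 to 1.71). The remaining 6 had ratios from 1.45 to 1.47, namely Lce1f (187 to 272 FPKM), Lce1g (134 to 197 FPKM), Lce1h (138 to 199 FPKM), Lce1i (161 to 235 FPKM), Lce1j (101 to 146 FPKM) and Lce1m (252 to 365 FPKM). Lce1m stands apart from the others, on the far side of the Lce3 genes, and its ratio lay with those of Lce1f to Lce1j. The summed level was higher by a factor of 1.32 (interval 1.29 to 1.35) for Lce1a1 to Lce1e and of 1.48 (interval 1.44 to 1.52) for Lce1f to Lce1m. The split was made by these ratios after the values were seen, so the distance between the sums restates it. Intervals of single genes overlapped across the split, such as 1.28 to 1.41 for Lce1a1 and 1.32 to 1.59 for Lce1j. Only those of Lce1k and Lce1l lay above the intervals of all 6 genes from Lce1a1 to Lce1e.

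The S100 fused-type genes, here only Flg2, Hrnr, Rptn and Tchh as the rule names them, encode long, repetitive proteins that bundle keratin or join the envelope. Hornerin (Hrnr) was at 44.0 (WT) and 61.1 FPKM (PU.1-/-), a ratio of 1.39 (interval 1.34 to 1.43). Flg2, a relative of filaggrin, was at 15.3 FPKM and 21.4 FPKM, also at a ratio of 1.39 (interval 1.31 to 1.49). Repetin (Rptn) was at 113 FPKM and 173 FPKM, the highest ratio of the 3, at 1.54 (interval 1.49 to 1.58). Trichohyalin (Tchh), which hardens the inner root sheath of hair as well as parts of the epidermis, went the other way, with 95.3 (WT) and 74.4 FPKM (PU.1-/-), a ratio of 0.781 (interval 0.755 to 0.807). The hair keratins had lower values in the same library. All 6 inner root sheath keratins (Krt25, Krt27, Krt28, Krt71, Krt72 and Krt73) were lower in PU.1-/-, with log2 ratios from -0.63 to -0.32 against -0.36 for Tchh, and all 8 hair cortex keratins were lower, from -0.72 to -0.14. Their part in the value of Tchh was not tested.

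Involucrin (Ivl), the scaffold protein laid down first, was at 34.8 (WT) and 31.2 FPKM (PU.1-/-). Its ratio of 0.898 had an interval of 0.815 to 0.989, close to 1, and it lay below that of Lor beyond counting error. Over the 21 late genes as the rule groups them, which include Ivl and Tchh, 19 were higher in PU.1-/- and the median log2 ratio was 0.48. Without Rptn, Tchh and Ivl the median was again 0.48.

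The Lce3 genes, which are known to be induced in damaged or inflamed epidermis, went with the late genes and not with the Sprr genes. Lce3c had the highest level of the family, with 56.0 (WT) and 92.6 FPKM (PU.1-/-), a ratio of 1.65 (interval 1.43 to 1.92). Lce3d was at 35.6 FPKM and 51.1 FPKM, a ratio of 1.44 (interval 1.16 to 1.78). Lce3a was at 14.0 FPKM and 19.3 FPKM, a ratio of 1.38, and its interval of 1.01 to 1.91 began near 1. Lce3b was at 27.4 FPKM and 33.8 FPKM, a ratio of 1.23, and its interval of 0.985 to 1.54 included 1. Lce3e had the largest ratio of all 43 genes, with 7.14 (WT) and 23.1 FPKM (PU.1-/-), 3.24 times higher (interval 2.27 to 4.72) from about 40 and 149 reads. Lce3f was near the limit of detection at 1.09 FPKM and 0.789 FPKM, about 6 and 5 reads, and no difference was detectable at this depth. Summed over the 6 genes, Lce3 gave 141 (WT) and 221 FPKM (PU.1-/-), a ratio of 1.56 (interval 1.42 to 1.72). The median log2 ratio of the Lce3 genes was 0.49, against 0.48 for the late genes and -0.35 for the 16 Sprr genes. Lce3 transcripts share sequence, so the split of reads between single genes is uncertain. Of all stretches of 75 bases (the read length) in the transcript of Lce3e, 41.1% also occur in another gene, and for Lce3f the share was 45.6%. It was 38.6% for Lce3d and 28.0% for Lce3c, the most abundant Lce3 genes in both libraries, and 9.47% for Lce3a and 6.15% for Lce3b.

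The Sprr1 genes, whose products cross-link the envelope and are typical of stressed epidermis, had the highest levels of all envelope genes. Sprr1a was at 1724 (WT) and 1324 FPKM (PU.1-/-), a ratio of 0.768 (interval 0.750 to 0.787). Sprr1b was at 1531 FPKM and 1244 FPKM, a ratio of 0.813 (interval 0.793 to 0.833). Together they made up 37.3% of the summed FPKM of the envelope genes in WT and 28.4% in PU.1-/-. Lor stood at 0.297 times the level of Sprr1a in WT and at 0.531 times in PU.1-/-. Sprr4, with a transcript of only 231 nt for which reads were not estimated, was at 145 FPKM and 152 FPKM, a ratio of 1.05. Sprr3, known from the oral and oesophageal lining, was at 0.165 FPKM and 0.144 FPKM, about 2 reads in each library.

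The Sprr2 genes showed the largest differences in the direction of lower values. Sprr2a1 and Sprr2a2, the first of the cluster, were below 1 FPKM in both libraries and are described further on. The next gene, Sprr2a3, was at 52.1 (WT) and 56.8 FPKM (PU.1-/-), a ratio of 1.09 (interval 0.945 to 1.26). Its neighbour Sprr2b was at 72.6 FPKM and 75.7 FPKM, a ratio of 1.04 (interval 0.934 to 1.17). Neither differed beyond counting error. Beyond Sprr2b all 8 genes were lower in PU.1-/-, by amounts that did not follow their order. Sprr2d, the most abundant of the family, was at 405 (WT) and 327 FPKM (PU.1-/-), a ratio of 0.806 (interval 0.763 to 0.852), close to those of Sprr1a and Sprr1b.

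The next gene, Sprr2e, was at 98.2 (WT) and 45.3 FPKM (PU.1-/-), a ratio of 0.461 (interval 0.401 to 0.529), and the intervals of Sprr2d and Sprr2e do not overlap. Sprr2f was at 61.8 FPKM and 23.3 FPKM, a ratio of 0.378 (interval 0.310 to 0.458). Sprr2g was at 98.3 FPKM and 57.6 FPKM, a ratio of 0.586 (interval 0.516 to 0.665), and Sprr2h at 193 FPKM and 129 FPKM, a ratio of 0.668 (interval 0.618 to 0.722). These last 2 had the highest ratios between Sprr2e and Sprr2k. Sprr2i was the second most abundant Sprr2 gene, at 339 (WT) and 156 FPKM (PU.1-/-), a ratio of 0.459 (interval 0.425 to 0.495) from about 1951 and 1029 reads. Sprr2j-ps, listed as a pseudogene, was at 35.3 FPKM and 17.2 FPKM, a ratio of 0.488 (interval 0.389 to 0.604). Sprr2k, at the far end, was at 7.11 FPKM and 1.92 FPKM, a ratio of 0.269 (interval 0.130 to 0.498) from about 43 and 13 reads. The 12 Sprr2 genes added up to 1363 (WT) and 890.2 FPKM (PU.1-/-), a ratio of 0.653 (interval 0.633 to 0.674), below that of the summed Sprr1 genes, at 0.789 (interval 0.776 to 0.803).

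Near-identical copies can share reads, and 17 of the 43 transcripts held no 75-base stretch found in another gene. No stretch of 75 bases in the transcripts of Sprr2f, Sprr2g, Sprr2h, Sprr2j-ps or Sprr2k occurs in another gene, and the share was 5.41% for Sprr2e, 6.08% for Sprr2i and 0.329% for Sprr2d. For Sprr2a3 the share was 28.9%, all with Sprr2a1 and Sprr2a2, so its ratio also depends on how such reads were divided. Sprr2a1 and Sprr2a2 had 94.3% and 94.6% of their stretches shared. They were listed at 0.388 and 0.582 FPKM (Sprr2a1) and at 0.194 and 0.601 FPKM (Sprr2a2) in WT and PU.1-/-, so that the ratio of Sprr2a2 of 3.10 (interval 1.31 to 8.51) stands on about 7 and 25 reads that could belong to either copy. Among the Lce1 genes the share was at most 13.5%, for Lce1e.

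**Figure D2:**
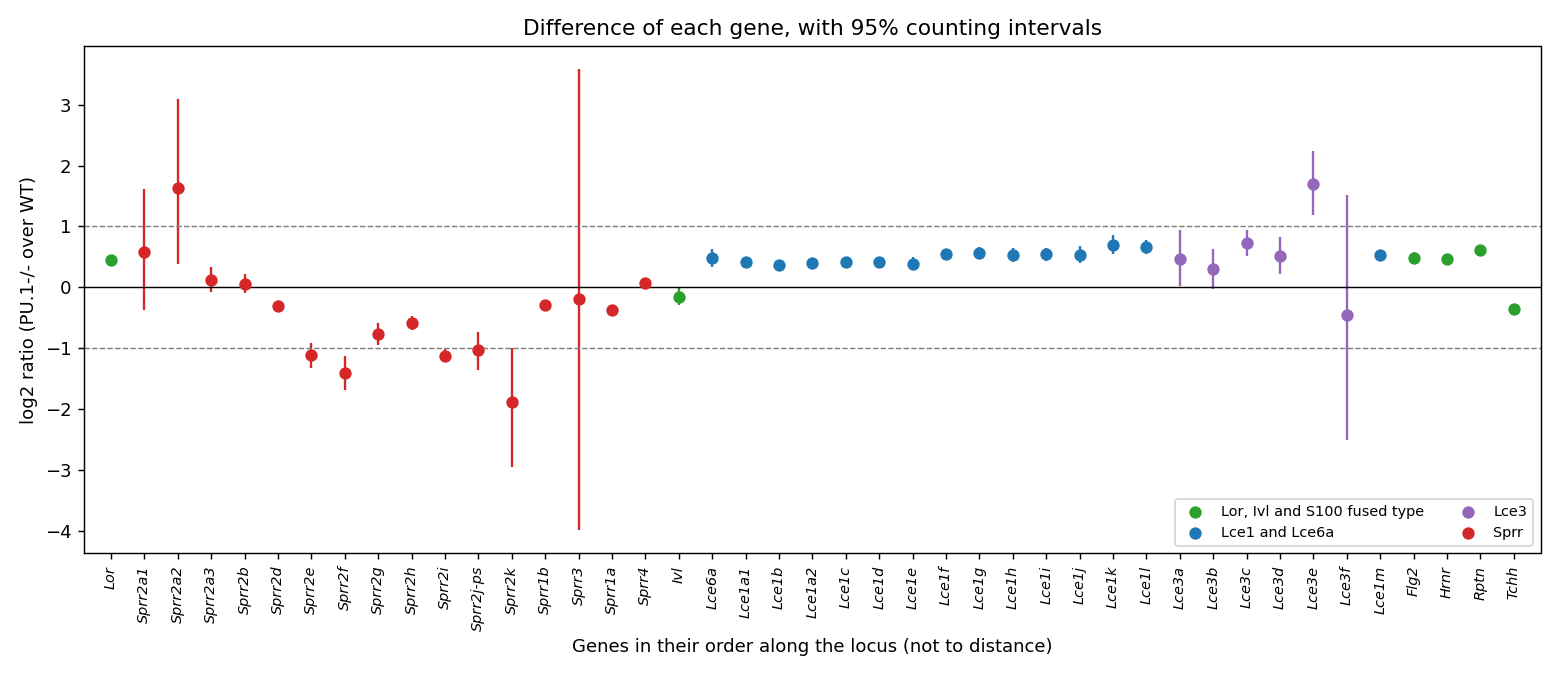
Log2 ratio (PU.1-/- over WT) of the 43 genes in their order along the locus, with 95% counting intervals as vertical lines (none for Sprr4). Dashed lines mark a ratio of 2 in each direction, and the points from Sprr2d to Sprr2k lie below 0 while the Lce1 genes lie in a narrow band above it.

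The 43 genes lie within a stretch of 1369 kb of chromosome 3, between 92080271 and 93449077. The lower values did not form 1 block along it. Lor stood at 1 end with a ratio of 1.37, the Sprr genes followed, Ivl came next with 0.898, and the Lce, Flg2, Hrnr and Rptn genes made up the rest, up to Tchh at the far end with 0.781. Over the 16 Sprr genes, 11 had lower values in PU.1-/-, and the exceptions were Sprr4 and the 4 genes from Sprr2a1 to Sprr2b. The 11 include Sprr3, for which about 2 reads in each library show no difference.

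The start regions of these genes were compared because neighbouring, closely related genes had different ratios. RefSeq promoter sequences of GRCm38.p6, each with 250 bases before and 50 after the start of transcription, were found for 40 of the 43 genes. Those printed here are of the most abundant late gene (Lor), the most abundant Sprr gene (Sprr1a), the Sprr2 genes on both sides of the change in ratio (Sprr2b, Sprr2d, Sprr2e and Sprr2i), a gene of the Lce1 cluster (Lce1i) and the gene with the largest ratio (Lce3e). Each is written in the direction of the gene, and capitals mark matches to the searched motifs.
Lor, chr3:92083093-92083392, - strand: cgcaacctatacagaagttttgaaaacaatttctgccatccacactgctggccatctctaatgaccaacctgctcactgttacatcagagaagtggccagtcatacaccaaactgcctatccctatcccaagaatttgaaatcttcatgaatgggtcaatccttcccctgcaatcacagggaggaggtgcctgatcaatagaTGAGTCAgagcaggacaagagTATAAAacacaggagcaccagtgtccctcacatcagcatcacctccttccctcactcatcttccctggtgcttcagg
Sprr1a, chr3:92485832-92486131, - strand: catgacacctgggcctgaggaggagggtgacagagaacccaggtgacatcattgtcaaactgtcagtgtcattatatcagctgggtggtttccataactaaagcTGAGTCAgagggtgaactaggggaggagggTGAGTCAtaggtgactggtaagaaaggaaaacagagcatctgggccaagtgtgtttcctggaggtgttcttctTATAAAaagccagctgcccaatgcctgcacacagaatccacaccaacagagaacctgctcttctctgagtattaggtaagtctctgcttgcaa
Sprr2b, chr3:92316455-92316754, + strand: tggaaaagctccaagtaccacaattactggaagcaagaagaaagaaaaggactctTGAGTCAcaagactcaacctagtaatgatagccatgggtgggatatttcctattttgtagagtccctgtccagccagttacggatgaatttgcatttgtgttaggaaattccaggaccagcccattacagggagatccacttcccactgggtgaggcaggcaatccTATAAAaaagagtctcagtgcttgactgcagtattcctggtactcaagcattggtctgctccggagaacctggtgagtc
Sprr2d, chr3:92338890-92339189, + strand: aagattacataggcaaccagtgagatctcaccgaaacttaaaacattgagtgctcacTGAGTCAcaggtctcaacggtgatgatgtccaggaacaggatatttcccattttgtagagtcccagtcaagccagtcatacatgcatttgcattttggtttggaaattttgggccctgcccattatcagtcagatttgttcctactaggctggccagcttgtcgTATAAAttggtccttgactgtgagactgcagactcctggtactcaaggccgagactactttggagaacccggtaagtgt
Sprr2e, chr3:92351893-92352192, + strand: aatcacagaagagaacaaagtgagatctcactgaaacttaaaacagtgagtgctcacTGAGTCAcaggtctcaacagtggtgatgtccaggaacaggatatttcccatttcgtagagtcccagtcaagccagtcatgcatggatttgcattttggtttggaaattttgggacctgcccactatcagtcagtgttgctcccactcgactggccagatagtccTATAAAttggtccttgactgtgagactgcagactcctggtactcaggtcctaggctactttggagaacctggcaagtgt
Sprr2i, chr3:92407741-92408040, + strand: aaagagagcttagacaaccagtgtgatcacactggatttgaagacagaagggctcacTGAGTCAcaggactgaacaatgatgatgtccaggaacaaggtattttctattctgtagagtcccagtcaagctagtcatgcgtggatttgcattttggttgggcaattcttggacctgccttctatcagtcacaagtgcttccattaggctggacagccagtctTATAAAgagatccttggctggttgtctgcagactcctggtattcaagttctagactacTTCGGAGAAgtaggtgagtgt
Lce1i, chr3:92778850-92779149, - strand: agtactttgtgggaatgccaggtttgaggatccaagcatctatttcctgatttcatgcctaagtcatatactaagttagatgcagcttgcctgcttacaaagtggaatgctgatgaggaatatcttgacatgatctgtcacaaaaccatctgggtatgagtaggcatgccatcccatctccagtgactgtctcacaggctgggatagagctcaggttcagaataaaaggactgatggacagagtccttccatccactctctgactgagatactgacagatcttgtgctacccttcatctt
Lce3e, chr3:92966811-92967110, + strand: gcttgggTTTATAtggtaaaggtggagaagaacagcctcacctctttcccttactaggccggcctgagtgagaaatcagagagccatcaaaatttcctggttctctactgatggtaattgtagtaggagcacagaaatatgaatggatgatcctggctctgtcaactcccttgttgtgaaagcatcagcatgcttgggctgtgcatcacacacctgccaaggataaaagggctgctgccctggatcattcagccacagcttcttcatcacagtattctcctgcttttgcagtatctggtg

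The searched motifs, on both strands, were TGANTCA (AP-1), GGGNGTG (KLF), AACNGGTT (Grainyhead), GAGGAAGT (PU.1), TTCNNNGAA (STAT) and TATAAA (the TATA box). TGANTCA was found in 9 of 14 Sprr promoters, in none of 13 Lce1 promoters and in none of 6 Lce3 promoters, against 7.93% of all 27025 promoters of that length. In the Sprr2 genes it sat at nearly the same place, from position -198 to -193 counted from the start, in 7 of 10 promoters, and TATAAA sat at -29 in each of those 7. The 7 were Sprr2b, with a ratio of 1.04, and Sprr2d, Sprr2e, Sprr2f, Sprr2h, Sprr2i and Sprr2k, with ratios from 0.806 down to 0.269. The windows of Sprr2a1, Sprr2a2 and Sprr2a3, none of which was lower in PU.1-/-, held no TGANTCA. The motif was thus present in genes of very different ratios, and its part in them was not tested. Sprr2d and Sprr2e, shown above, had the same base at 88.0% of the 300 positions, compared without gaps, and both hold TGANTCA at the same position, while their ratios were 0.806 and 0.461. The windows of Sprr2a1 and Sprr2a2 were identical, and neither holds TGANTCA or TATAAA. Their last bases, gggtgaggcagg, lie just before TATAAA in Sprr2b, and the window of Sprr2a3 ends before these bases. The lack of TATAAA in these windows therefore does not show that the genes lack it. Among the late genes, TGANTCA occurred in Lor (at -48), Ivl, Flg2 and Rptn. TATAAA was found on either strand in 18 of 40 envelope promoters against 14.2% of all. The only matches in Lce3e (at -243) and Lce6a (at -218) were on the opposite strand and far from the usual place of a TATA box. GAGGAAGT, the motif of PU.1 itself, was found in Lce1d, Lce1h and Sprr3, 3 of 40 against 3.28% of all promoters. GGGNGTG was found in 4 of 40 against 29.0%, TTCNNNGAA in 3 of 40 against 8.47% and AACNGGTT in 1 of 40 (Rptn) against 2.01%. These matches are descriptions of the letters and not sites of binding.

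The envelope is assembled by enzymes and held by junction proteins, and a list of 44 such genes was examined, of which 43 were listed. At a ratio of 2, none of the 43 was higher, against 2.32% of all genes listed, and 1 was lower, against 4.34%. For so few genes these counts lie near those shares. The median log2 ratio of the 43 was -0.06. The lower gene was Padi2, an enzyme that turns arginine into citrulline, at 1.47 (WT) and 0.317 FPKM (PU.1-/-). Tgm1, the membrane-bound transglutaminase of the envelope, was at 106 FPKM and 118 FPKM, a ratio of 1.11 (interval 1.06 to 1.16). Tgm3, a transglutaminase shared with hair follicles, was at 16.7 FPKM and 12.5 FPKM, a ratio of 0.749 (interval 0.681 to 0.826). Asprv1, a protease of the granular layer, was at 1250 FPKM and 1665 FPKM, a ratio of 1.33. Casp14, a caspase of the same layer, was at 41.6 FPKM and 52.3 FPKM, a ratio of 1.25. Asprv1 and Casp14 were picked out after their values were seen, and the list did not go 1 way. Over the 43 genes, 17 were higher in PU.1-/- and 26 lower. Among the lower ones, Klk6 was at 324 (WT) and 220 FPKM (PU.1-/-), a ratio of 0.681. Klk10 was at 106 FPKM and 65.1 FPKM, a ratio of 0.616.

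Of 23 transcription factors and other regulators of keratinocytes that were listed, none passed a ratio of 2 in either direction. Over all genes listed, 2.32% were higher and 4.34% lower at that ratio, so few or none would be counted among 23 genes. Of the 23, 11 were higher and 12 lower in PU.1-/-, and their median log2 ratio was -0.01. Klf4, a factor of late differentiation, was at 215 (WT) and 172 FPKM (PU.1-/-), a ratio of 0.799 (interval 0.775 to 0.825). Grhl3, a factor of barrier formation, was at 33.0 FPKM and 28.6 FPKM, a ratio of 0.866 (interval 0.798 to 0.940). The 5 Fos and Jun subunits of AP-1 chosen for this list had higher values in PU.1-/-, and other subunits were not looked at. The ratios were 1.35 for Fos, 1.15 for Fosl2, 1.09 for Jun and 1.08 for Fosl1. The interval of Fosl1, 0.841 to 1.40, included 1. Junb was at 248 FPKM (WT) and 299 FPKM (PU.1-/-). Nfe2l2, a factor of the oxidative stress response, was at 46.2 FPKM and 60.2 FPKM. Stat3, a factor of cytokine signalling, and Trp63, a factor of basal keratinocytes, had ratios of 1.29 and 1.21, and the lowest ratio of the list was 0.652, for Maf.

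The epidermal keratins went both ways. Krt1, the partner of Krt10 in suprabasal cells, was at 1378 (WT) and 1820 FPKM (PU.1-/-), a ratio of 1.32, and Krt10 had a ratio of 1.14. Krt77, also suprabasal, was at 3.49 FPKM and 1.91 FPKM, a ratio of 0.549 (interval 0.414 to 0.731), and Krt2 was at 0.210 FPKM and 0.183 FPKM. The basal keratins Krt5, Krt14 and Krt15 had ratios of 1.05, 1.12 and 1.53. Of the 4 keratins of the wound edge, Krt6a had a ratio of 1.01, Krt16 of 1.21 and Krt17 of 0.926, and Krt6b was at 1921 FPKM and 2304 FPKM, so that only Krt17 among them was lower in PU.1-/-, as most Sprr genes were. The 7 basal markers were all higher in PU.1-/-, with log2 ratios from 0.07 to 0.61, the 6 fibroblast markers from 0.09 to 0.48 and the 6 skeletal muscle markers from 0.64 to 1.04. The neutrophil markers were lower, with Ngp and Retnlg listed at 0 and S100a8, which keratinocytes also make, at 6600 FPKM and 2129 FPKM. The part of these shifts in the envelope values was not tested. When both libraries were scaled to the sum of Krt1 and Krt10, which lowered the log2 ratio of every gene by 0.27, 19 of 21 late genes were still higher in PU.1-/- and 14 of 16 Sprr genes were lower. Such a shift can only add to the Sprr count, which was 11 as reported. The genes it added were Sprr2a3, Sprr2b and Sprr4, with ratios near 1 before. After this scaling the median log2 ratio was 0.21 for the late genes, 0.22 for the Lce3 genes and -0.61 for the Sprr genes.

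**Figure D3:**
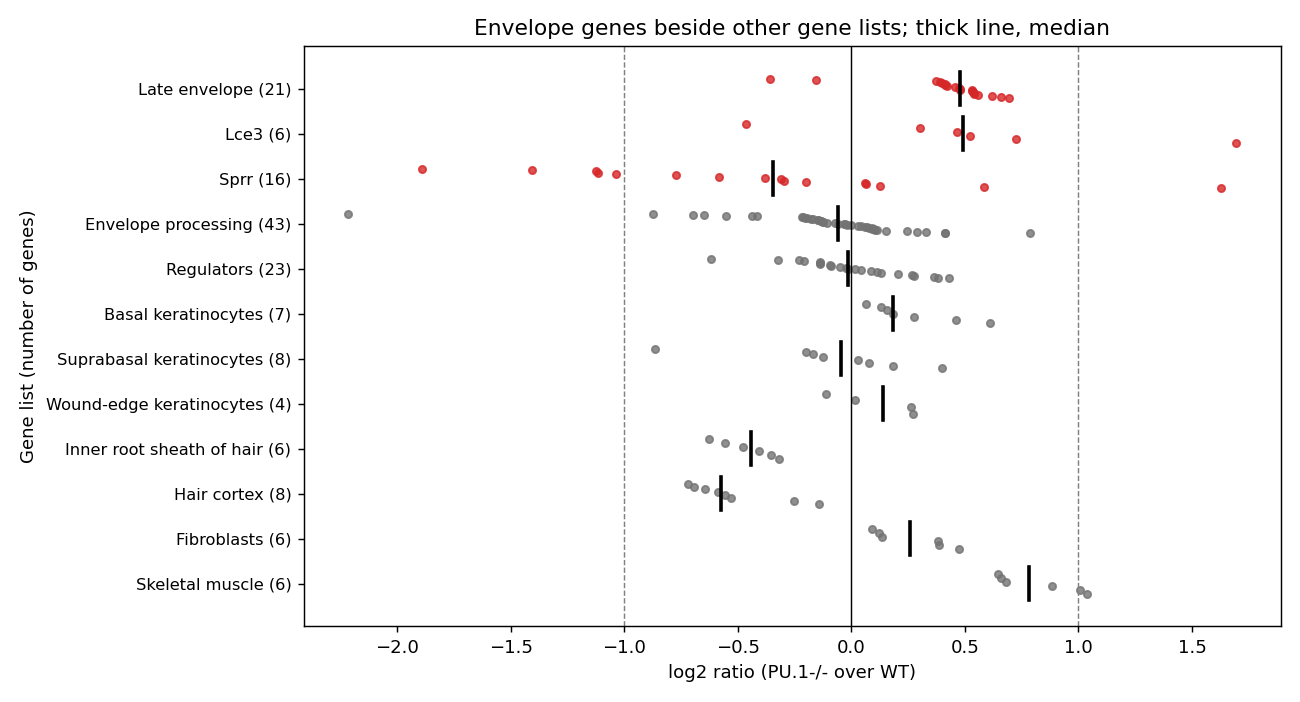
Log2 ratio (PU.1-/- over WT) of each gene (points) in the envelope groups (red) and in other lists (grey), with the median of each list as a thick line and ratios of 2 as dashed lines. The medians of the late genes (0.48) and the Lce3 genes (0.49) lie to the right of those of the processing genes (-0.06) and of the suprabasal keratinocyte markers (-0.05), and that of the Sprr genes (-0.35) to the left.

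**Figure D4:**
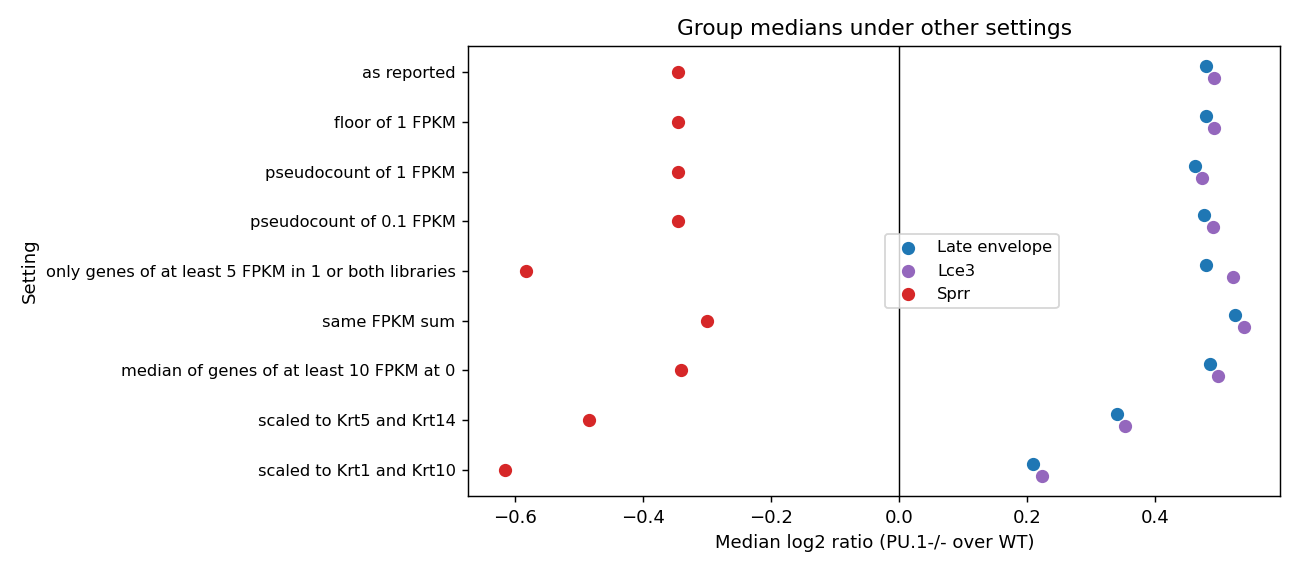
Median log2 ratio of the late envelope, Lce3 and Sprr genes under the values as reported and 8 other settings of low values, filter and scaling. The late and Lce3 medians stay above 0 and the Sprr median below 0 in each.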

How the data were processed

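Full-thickness wounds of neonatal dorsal skin were homogenized, and stranded mRNA libraries were read as single ends of 75 bases. The authors mapped the reads to mouse mm10 and deposited FPKM values, for which the methods name Cuffnorm 2.2.1. The submitters' processing notes also name TopHat2 2.1.1, Bowtie2 2.2.8, SAMtools 0.1.18 and Cuffdiff 2.2.1. The annotation is not given in the sources used here. Groups follow the genotype labels, with 1 library each.

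Values below 0.1 FPKM were raised to 0.1 before ratios were taken, and a ratio of 2 was the limit for counts. For genes of 1 transcript linked to RefSeq, FPKM times (length minus 200 nt) had a sharp lowest peak, taken as 1 read. By this step, 78.3% (WT) and 78.8% (PU.1-/-) of 1306 and 1272 values under 5.5 reads came out whole within 0.1. Reads were estimated with GENCODE M21 transcript lengths of at least 400 nt, so intervals depend on that length and on reads being independent molecules. Sharing of reads was measured as 75-base stretches found in transcripts of other genes. Genes were named where they reached 10 FPKM in 1 or both libraries or a ratio of 2, and the remaining members are given for completeness. Marker and processing lists and members were chosen with earlier results of these data known. The functions were tested on simulated data. Calculations used scipy 1.17.1, numpy 2.4.6 and pandas 2.3.3 under Python 3.11.15, and plots matplotlib 3.10.9.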

Additional observations from a re-analysis of the deposited data

How the results depend on the processing

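With 1 library per genotype, the spread between pups is unknown and counting error is a lower limit of the true error. No paired analysis was possible because each genotype has 1 library, so no library was left out either.

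A difference of medians does not depend on scaling. Over the alternatives of floor, pseudocount, filter and scaling, the late median was above 0 and the Sprr and Lce3 median below 0. The Sprr and Lce3 median was -0.25 as reported, -0.12 with a pseudocount of 1 FPKM and -0.06 with a floor of 1 FPKM. The counting intervals of its genes had a median half-width of 0.28 in log2, so its sign is not firm. The number of higher envelope genes was 1 in place of 2 with a floor of 1 FPKM, with a pseudocount of 1 FPKM and with genes of at least 5 FPKM only, since Sprr2a2 is below 1 FPKM, and 6 at a ratio of 1.5. It was 0 without the 7 genes that share 25% or more of their 75-base stretches, an alternative chosen after seeing the data, as was splitting Lce3 from Sprr. The number of lower genes was 1 in place of 5 at a ratio of 3, and 4 with a pseudocount of 1 FPKM or the same FPKM sum in both libraries, where the log2 ratio of Sprr2j-ps was -0.995 or -0.991, just short of a ratio of 2. It was 6 when scaled to Krt1 and Krt10, where Sprr2g reached -1.04, and 6 at a ratio of 1.5. With Lce3 alone in place of Sprr and Lce3, the median log2 ratio was 0.49 in place of -0.25 and the difference from the late genes 0.013 in place of -0.73. Scaling to Krt5 and Krt14, which lowered all log2 ratios by 0.14, gave a median of 0.34 for the late genes and -0.20 for the processing genes, and scaling to Krt1 and Krt10 gave 0.21 and -0.33. In the order of Lce1, Sprr1, Sprr2 and the S100 fused type, the log2 ratios of the summed FPKM were 0.47, -0.34, -0.61 and 0.30 as reported, 0.52, -0.30, -0.57 and 0.35 with the same FPKM sum in both libraries, 0.33, -0.48, -0.75 and 0.16 when scaled to Krt5 and Krt14, and 0.20, -0.61, -0.88 and 0.034 when scaled to Krt1 and Krt10. For Lce3 the value was 0.64 as reported, 0.51 when scaled to Krt5 and Krt14 and 0.38 when scaled to Krt1 and Krt10. No value of a gene at a ratio of 2 changed to the opposite direction, but the log2 ratio of Sprr2a2 was 0.0 with a floor of 1 FPKM.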

Other observations

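Other genes lie between the envelope genes on the same stretch of chromosome 3, and 7 of them were listed. They were looked at after the values of the envelope genes were seen. Kprp, a proline-rich gene between Lce1k and Lce1l, was at 57.5 (WT) and 99.1 FPKM (PU.1-/-), a ratio of 1.72 (interval 1.63 to 1.82). The uncharacterised gene 2310050C09Rik, which lies between Lce1l and Lce3a, was at 139 FPKM and 241 FPKM, a ratio of 1.73 (interval 1.63 to 1.84). Crct1, a cysteine-rich gene between Lce3f and Lce1m, was at 377 FPKM and 501 FPKM, a ratio of 1.33 (interval 1.27 to 1.40). These 3 genes, set among the Lce genes, were higher in PU.1-/-, and Kprp, Crct1 and Crnn were also counted among the processing genes above.

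Prr9, a proline-rich gene between Lor and the Sprr2 cluster, was at 245 (WT) and 180 FPKM (PU.1-/-), a ratio of 0.734 (interval 0.698 to 0.772). Crnn, which encodes cornulin and lies between Lce1m and Flg2, was at 6.82 FPKM and 3.72 FPKM, a ratio of 0.546 (interval 0.410 to 0.722), although the genes on both its sides were higher. The rule does not name Crnn, so it was left out of the S100 fused-type values above. Lelp1 and Smcp were listed at 0 in both libraries.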
